A study of Mus musculus with 6 samples.

Results

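The glycolysis and gluconeogenesis genes described here are the genes that the authors' table assigns to the KEGG pathway of that name. The table lists 56 such genes among 17744 genes, and 43 of them had an FPKM (fragments per kilobase of gene length, scaled to the mapped fragments of the library) of at least 1 in at least 3 of the 6 libraries, as did 10655 genes in all. The 13 others were too low to test. The libraries were made from splenic CD8 T cells of mice, sorted as CD45+ CD3+ CD8a+ cells, with 3 libraries labelled control, whose genotype label is wt, and 3 from animals treated with focused ultrasound, in which sound waves are concentrated on one region of the body. The ultrasound samples carry the words fus irradiation in both the genotype and the treatment field. The series title names the spleen and immune activation, and the labels used here state no strain, age, sex, dose, interval after treatment, batch or pooling of animals. Whether the 3 libraries of a group came from separate animals is not given in the sources used here, so p-values measure only the spread between these libraries, which may be technical.

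Glycolysis splits glucose into pyruvate in the cytosol and yields ATP and NADH. Pyruvate is then reduced to lactate by lactate dehydrogenase or enters the mitochondrion, where the pyruvate dehydrogenase complex turns it into acetyl-CoA. Resting T cells rely largely on mitochondrial respiration, whereas activated CD8 T cells raise glucose uptake and lactate release. Gluconeogenesis runs the path backwards with a few enzymes of its own, mainly in liver and kidney, and the KEGG pathway also holds enzymes of alcohol, aldehyde and acetate metabolism that join it at acetyl-CoA.

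Recovered reads per library ranged from 35024080 to 38113103, and the 56 genes took 0.447% to 0.472% of the reads in the controls and 0.530% to 0.566% in the ultrasound libraries. Markers of CD8 T cells were high in every library, with a summed FPKM over 9 genes of 2437 to 2568 in the controls and 2104 to 2643 in the ultrasound libraries. Limma called 0 of the 9, where it called 8.11% of all genes tested in either direction. At an unadjusted p under 0.05, 1 of the 9 was lower, where 8.57% of all genes tested were. Cd3d and Lat lay below every control and 0 above, where 8.96% and 25.9% of all genes tested did. The median log2 change was -0.10 for the 9 and 0.09 for all genes tested. The ultrasound libraries did not form a tight group: ultrasound 1 stood apart from ultrasound 2 and 3 on the leading principal component, which held 70.8% of the variance, and the share of mitochondrial reads was 2.05% to 2.70% for controls, 2.19% for ultrasound 1 and 0.954% and 0.937% for ultrasound 2 and 3. Values of a group are given in the order of libraries 1, 2 and 3. Results are also given for ultrasound 2 and 3 against the controls ("without ultrasound 1") and for ultrasound 1 alone against the controls. Markers of macrophages and monocytes and of neutrophils were higher in the ultrasound libraries, with values given after those of the genes that rose.

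Of the 43 genes tested, 6 rose and 0 fell in the ultrasound libraries at an adjusted p under 0.05 (limma on log2(FPKM + 1), adjusted over all 10655 genes), where 6.55% of all genes tested rose and 1.56% fell (8.11% in either direction). The genes that rose were Aldh3b1, Hk3, Aldh2, Pck2, Eno1 and Aldh1b1. At an unadjusted p under 0.05 limma gave 20 genes higher and 0 lower, where 22.6% of all genes tested were higher and 8.57% lower. The authors' deposited table gave a q under 0.05 for 7 of the 43, all higher (8.64% of all genes tested higher and 7.73% lower): these 6 and Aldoc. Past a fold of 1.5 with an unadjusted p under 0.05 there were 6 genes, all higher, where 8.53% of all genes tested were higher and 3.47% lower. They were Aldh3b1, Hk3, Aldh2, Pck2, Aldoc and Eno1b. Eno1 and Aldh1b1, which limma called, fell short of that fold on the log2(FPKM + 1) scale. The log2 change was above 0 for 36 genes and below 0 for 7, with a median of 0.21, and the median of all genes tested was 0.09. In 26 of the 43 genes every ultrasound library lay above every control, in 0 every one lay below, and in 17 the groups overlapped, where 25.9% of all genes tested lay above and 8.96% below.

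These counts moved with scaling and with single libraries. The FPKM put the median log2 change of all genes at 0.09, and median-of-ratios factors computed on the FPKM put it at 0.00. With those factors the median over the 43 genes was 0.11, 16 lay above every control and 3 (Acss1, Pdha1 and Pdhb) below, where 17.5% and 16.0% of all genes tested did. Without ultrasound 1, limma called 23 of 42 genes higher and 3 lower, where 33.8% of all genes tested were called higher and 19.9% lower. Ultrasound 1 alone against the controls gave 2 genes called higher, Eno1 and Eno1b, and 0 lower, where 0.967% and 0.441% of all genes tested were called. Without control 2, control 3, ultrasound 2 or ultrasound 3 in turn, limma called 0 genes of the whole table and so 0 of the 43, although 1945, 2137, 1971 and 1913 genes, and 13, 13, 13 and 17 of the 43, had an unadjusted p under 0.05. Each ultrasound library on its own lay above every control for 31 genes in ultrasound 1, 36 in ultrasound 2 and 33 in ultrasound 3, where 44.6%, 53.2% and 49.6% of all genes tested did.

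**Figure D1:**
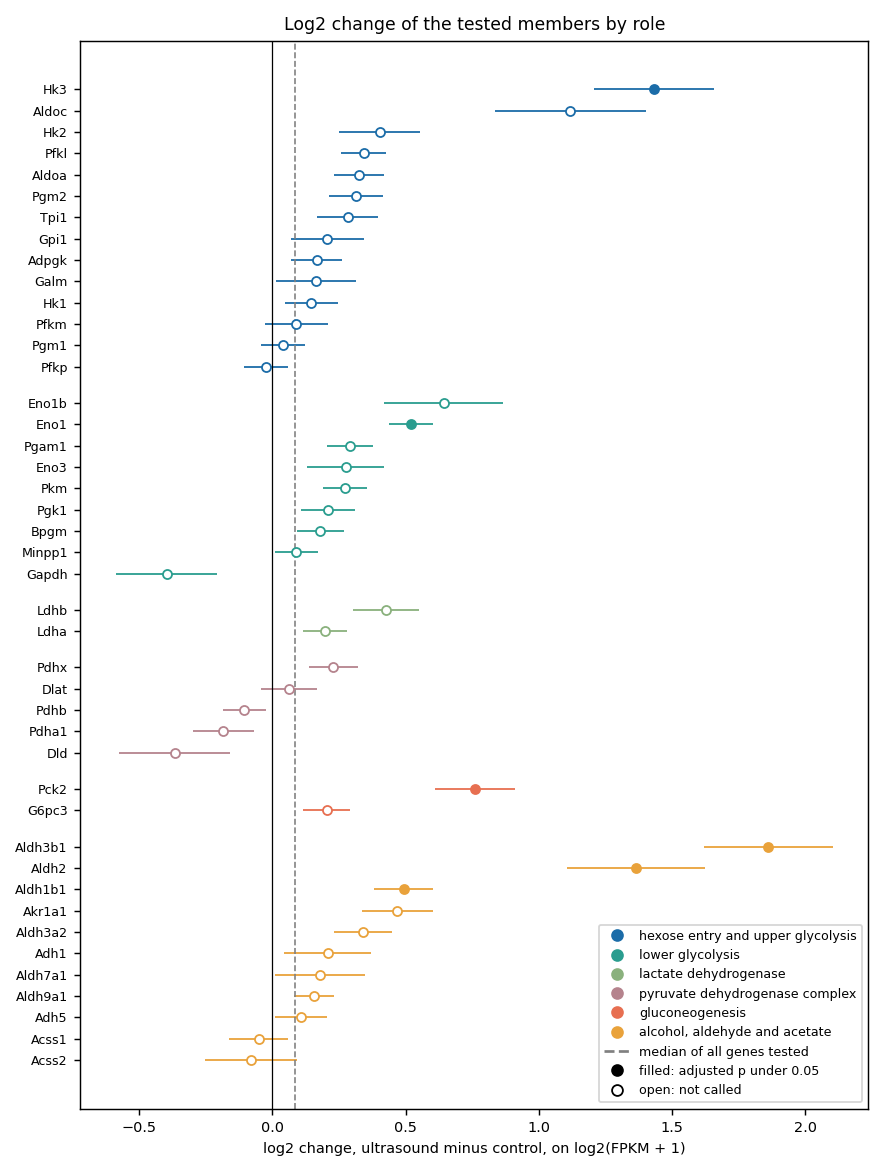
Log2 change of the 43 tested genes on log2(FPKM + 1), ultrasound minus control, with bars of 1 standard error, in blocks by role. Filled points are the 6 genes with a limma adjusted p under 0.05, and the dashed line is the median of all genes tested at 0.09. Of the 43 points 36 lie above 0, and Gapdh and Dld lie farthest below it.

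Stretches of DNA just upstream of 5 genes are printed to show the letters of the promoters discussed: Eno1, Pck2 and Hk3 rose, and Pgk1 and Pgam1 are adjoining steps whose upstream bases hold the motif ACGTG, the core letters at which hypoxia-inducible factors bind. They come from RefSeq for build GRCm38.p6 (the assembly also called mm10), run 5′ to 3′ on the gene's strand and end just before the gene's start, and capitals mark ACGTG on either strand (CACGT on the printed strand where it is read from the other one). The windows of Pck2 and Hk3 overlapped the annotated gene, whose bases were left out, so that 247 and 160 bases are shown for them and 250 for the others. The genes, and the motifs searched, were chosen after values had been seen.

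Eno1, chr4:150236458-150236707, plus strand: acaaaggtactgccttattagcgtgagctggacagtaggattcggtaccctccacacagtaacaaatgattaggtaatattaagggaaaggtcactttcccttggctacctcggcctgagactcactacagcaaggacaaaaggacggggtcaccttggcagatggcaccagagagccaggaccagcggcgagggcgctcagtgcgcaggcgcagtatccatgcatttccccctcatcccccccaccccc
Pck2, chr14:55540016-55540262, plus strand: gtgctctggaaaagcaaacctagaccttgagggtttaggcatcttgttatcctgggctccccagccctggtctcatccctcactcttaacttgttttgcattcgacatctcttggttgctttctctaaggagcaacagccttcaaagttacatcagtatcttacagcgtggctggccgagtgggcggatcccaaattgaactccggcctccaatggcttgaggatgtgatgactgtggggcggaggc
Hk3, chr13:55021476-55021635, minus strand: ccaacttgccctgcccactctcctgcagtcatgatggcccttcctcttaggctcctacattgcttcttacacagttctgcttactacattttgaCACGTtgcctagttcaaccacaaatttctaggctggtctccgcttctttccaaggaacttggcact
Pgk1, chrX:106186850-106187099, plus strand: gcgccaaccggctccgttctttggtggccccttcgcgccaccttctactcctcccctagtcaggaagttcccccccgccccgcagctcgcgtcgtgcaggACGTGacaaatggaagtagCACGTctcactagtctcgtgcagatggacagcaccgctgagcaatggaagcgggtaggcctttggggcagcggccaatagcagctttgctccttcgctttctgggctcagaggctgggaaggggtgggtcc
Pgam1, chr19:41911621-41911870, plus strand: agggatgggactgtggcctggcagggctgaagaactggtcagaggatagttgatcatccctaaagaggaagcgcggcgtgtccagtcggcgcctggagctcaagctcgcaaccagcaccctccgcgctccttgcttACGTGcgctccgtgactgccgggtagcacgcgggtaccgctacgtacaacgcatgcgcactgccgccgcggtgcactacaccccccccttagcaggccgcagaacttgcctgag

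A window of 250 upstream bases was found for 39 of the 43 genes, and for none of Aldh2, Aldh7a1, Eno1b and Galm. On either strand, ACGTG lay in the window of 16 of the 39 (41.0%), in 25.5% of 8632 tested genes with a window and in 16.6% of all 32851 windows. A gene with several windows was counted if any of them held the motif. Of the 5 genes that rose and had a window, 1 held ACGTG, Hk3. The median log2 change was 0.21 in the 16 genes with the motif and 0.21 in the others. The longer motif CACGTG, which contains ACGTG and is bound by Myc and Max, lay in 4 of the 39 (10.3%) and in 10.2% of tested genes. Of 6 motifs searched, the other four were GGAAGT, in 17.9% of the 39 and 29.2% of tested genes, GAGGAAGT, which contains GGAAGT, in 0 of the 39 and 3.59%, GGGCGG in 61.5% and 63.2%, and TATAAA in 5.13% and 7.66%. A match describes letters only and shows no binding.

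The first steps, from glucose to triose phosphates, had 14 tested genes, of which 1 rose (Hk3), 8 lay above every control and 6 overlapped the controls. Their median log2 change was 0.24. Of all genes tested, 6.55% rose and 25.9% lay above every control. Hk3 (chr13:55005985-55021475) encodes a hexokinase, the enzyme that traps glucose in the cell as glucose 6-phosphate, and is the form known from myeloid cells. Its FPKM was 4.07, 2.34 and 2.47 in control 1, 2 and 3 and 11.9, 7.20 and 9.89 in ultrasound 1, 2 and 3. The groups did not overlap, control 1 was the highest control and ultrasound 1 the highest library. The log2 change was 1.43 with a standard error of 0.23 (limma adjusted p = 0.0304). It was 1.73 in ultrasound 1 alone (adjusted p = 0.0547) and 1.28 without ultrasound 1 (adjusted p = 0.00556).

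Hk1, the main hexokinase of these libraries, stood at 30.1, 32.4 and 31.2 FPKM in the controls and 30.8, 36.3 and 37.2 in the ultrasound libraries. Ultrasound 1 lay among the controls and the other two above them, with a log2 change of 0.15 ± 0.10 (SE; limma adjusted p = 0.326). Hk3 held 6.25% to 10.8% of the sum of Hk1, Hk2 and Hk3 in the controls and 15.2% to 25.8% in the ultrasound libraries. The share of Hk1 was 80.0% to 86.9% and 66.7% to 76.6%, and that of Hk2 was 6.25% to 9.19% and 7.53% to 8.86%. The shares of Hk3 and Hk1 did not overlap between groups, those of Hk2 did, and no test was made of the shares. The sum of the 3 hexokinases was 35.9 to 37.6 FPKM in the controls and 46.3 to 51.7 in the ultrasound libraries.

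Gpi1, which converts glucose 6-phosphate to fructose 6-phosphate, had 180.0, 175 and 171 FPKM in the controls and 165, 221 and 227 in the ultrasound libraries. Ultrasound 1 was the lowest of all 6 libraries and ultrasound 2 and 3 the highest. Limma gave a log2 change of 0.21 ± 0.14 (SE; limma adjusted p = 0.319), 0.35 without ultrasound 1 (adjusted p = 0.00410) and -0.08 in ultrasound 1 alone (adjusted p = 0.594).

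Phosphofructokinase, the committed step, was represented by 3 genes. Pfkp, the platelet-type form and the most abundant here, had 42.0, 41.6 and 39.8 FPKM in the controls and 43.2, 39.2 and 39.0 in the ultrasound libraries, which overlapped (log2 change -0.02 ± 0.08, SE; limma adjusted p = 0.865). Pfkl, the liver-type form, lay above every control in each ultrasound library, with a log2 change of 0.34 ± 0.08 (SE; limma adjusted p = 0.0543). The share of Pfkl in the FPKM of the 3 forms was 22.3% to 22.8% in the controls and 25.1% to 29.5% in the ultrasound libraries, and that of Pfkp 68.3% to 70.2% and 62.9% to 67.2%. Neither of these shares overlapped between groups.

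**Figure D2:**
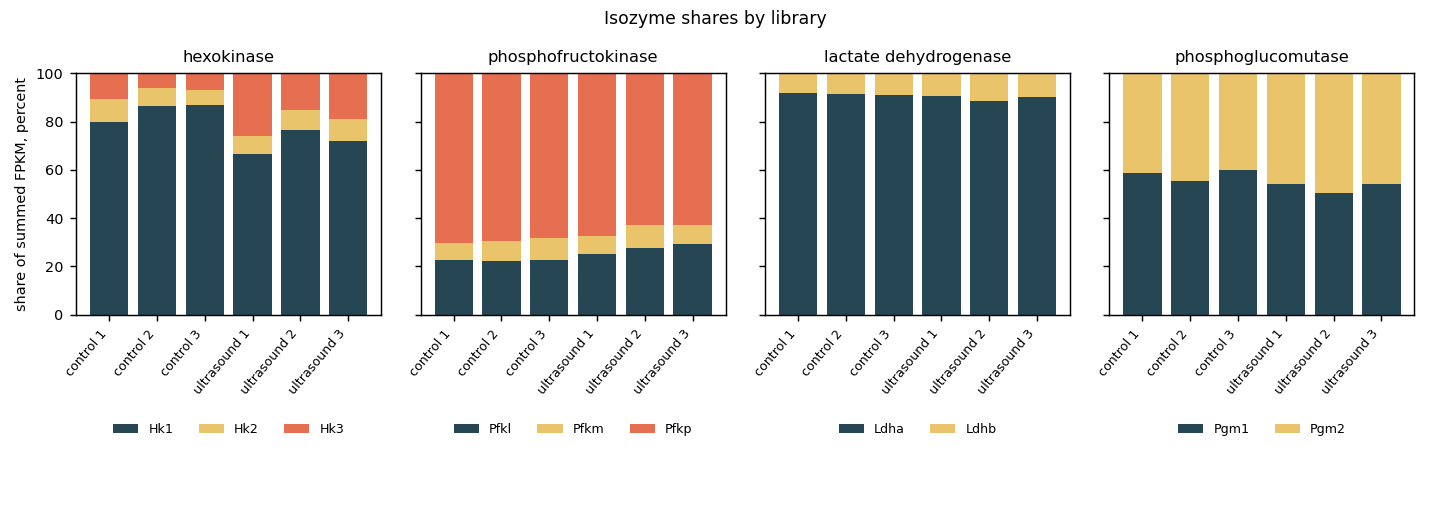
Share of each isozyme in the summed FPKM of its family, in percent, for each of the 6 libraries, with hexokinase, phosphofructokinase, lactate dehydrogenase and phosphoglucomutase as panels. Hk3 takes 6.25% to 10.8% of hexokinase FPKM in the controls and 15.2% to 25.8% in the ultrasound libraries.

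Aldolase cleaves fructose 1,6-bisphosphate into 2 triose phosphates. Aldoa, the ubiquitous form, had 163, 149 and 150 FPKM in the controls and 179, 198 and 203 in the ultrasound libraries. All ultrasound libraries lay above all controls, and the log2 change of 0.32 ± 0.09 (SE) was not called (limma adjusted p = 0.0787) but was called without ultrasound 1 (0.38, adjusted p = 0.00456).

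Aldoc, a form known from brain, was low, at 0.444, 0.586 and 0.809 FPKM in the controls and 1.51, 4.47 and 2.08 in the ultrasound libraries, with ultrasound 2 the highest. Its log2 change of 1.12 ± 0.28 (SE) was not called by limma (adjusted p = 0.0590), and the authors' deposited table gave it a log2 fold change of 1.99 and a q of 6.30e-04. Brain markers, 12 genes added after values had been seen, summed to 27.0 to 31.0 FPKM in the controls, 28.5 in ultrasound 1, 54.0 in ultrasound 2 and 37.2 in ultrasound 3. Mbp made up most of these sums, at 25.8, 29.5 and 28.3 in the controls and 27.3, 33.3 and 34.4 in the ultrasound libraries. Every other brain marker was highest in ultrasound 2. Snap25 reached 4.81 FPKM and Slc17a7 5.66 there, against at most 0.0108 and 0.0289 in a control. One of the 12 was at 0 in every control, and the part of this signal in the Aldoc values was not tested.

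Tpi1, which interconverts the triose phosphates, had 58.2, 55.0 and 49.7 FPKM in the controls and 74.3, 66.3 and 58.8 in the ultrasound libraries. The groups were separated by a narrow gap between ultrasound 3 and control 1, and the log2 change was 0.28 ± 0.11 (SE; limma adjusted p = 0.150). Among the other upper-pathway genes, Hk2, Pgm2 and Adpgk lay above every control, with log2 changes of 0.40, 0.31 and 0.17, and Galm, Pgm1 and Pfkm overlapped the controls, with 0.16, 0.04 and 0.09. None of these 6 was called.

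The steps from glyceraldehyde 3-phosphate to pyruvate had 9 tested genes, of which 1 rose (Eno1), 7 lay above every control and 2 (Gapdh and Eno3) overlapped the controls. Their median log2 change was 0.27. Among all genes tested, 6.55% rose and 25.9% lay above every control. Eno1 (chr4:150236708-150248879) encodes enolase 1, which forms phosphoenolpyruvate, and was the most abundant of the 43 genes per length. Its FPKM was 219, 211 and 216 in the controls and 314, 295 and 320 in the ultrasound libraries. Controls differed little from each other, and all 3 ultrasound libraries lay well above them, at 1.44 times the control mean on average. The log2 change was 0.52 ± 0.08 (SE; limma adjusted p = 0.0304), with 0.54 in ultrasound 1 alone (adjusted p = 0.0426) and 0.51 without ultrasound 1 (adjusted p = 0.00132).

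Eno1b, a near copy of Eno1 without introns, showed 2.01 to 2.81 FPKM in the controls and 6.41, 3.29 and 3.60 in the ultrasound libraries, with a log2 change of 0.64 ± 0.22 (SE; limma adjusted p = 0.113). Reads of such copies can be split between them by the counting, so the division between Eno1 and Eno1b is uncertain, but Eno1 held 94.1% to 94.9% of all enolase FPKM in every library.

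Gapdh, which oxidises glyceraldehyde 3-phosphate and is often used as a reference gene, went the other way in 2 libraries. Its FPKM was 48.5, 55.3 and 51.4 in the controls and 52.7, 31.0 and 36.3 in the ultrasound libraries. Ultrasound 1 lay among the controls and ultrasound 2 and 3 below all of them. Its log2 change came to -0.40 ± 0.19 (SE; limma adjusted p = 0.198), -0.61 without ultrasound 1 (adjusted p = 0.00188) and 0.03 in ultrasound 1 alone (adjusted p = 0.914). Gapdh has many processed copies in the mouse genome, and how shared reads were counted is not given in the sources used here.

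The steps between Gapdh and enolase were not called. Pgk1, which makes the first ATP of the pathway, had 107, 104 and 95.5 FPKM in the controls and 131, 114 and 111 in the ultrasound libraries (log2 change 0.21 ± 0.10, SE; limma adjusted p = 0.202). Pgam1, which moves the phosphate group of 3-phosphoglycerate, had 31.7, 34.3 and 30.2 in the controls and 41.5, 39.0 and 37.9 in the ultrasound libraries (log2 change 0.29 ± 0.09, SE; limma adjusted p = 0.0828). In both genes ultrasound 1 was the highest library and no ultrasound library reached down to a control.

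Pkm, the pyruvate kinase that makes the last ATP, had 90.3, 87.1 and 82.4 FPKM in the controls and 106, 101 and 107 in the ultrasound libraries. The groups did not overlap, and the log2 change was 0.27 ± 0.08 (SE; limma adjusted p = 0.0838), with 0.26 without ultrasound 1 (adjusted p = 0.0179). Bpgm and Minpp1 also lay above every control, with log2 changes of 0.18 and 0.09, and Eno3 had 0.27 with overlap.

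**Figure D3:**
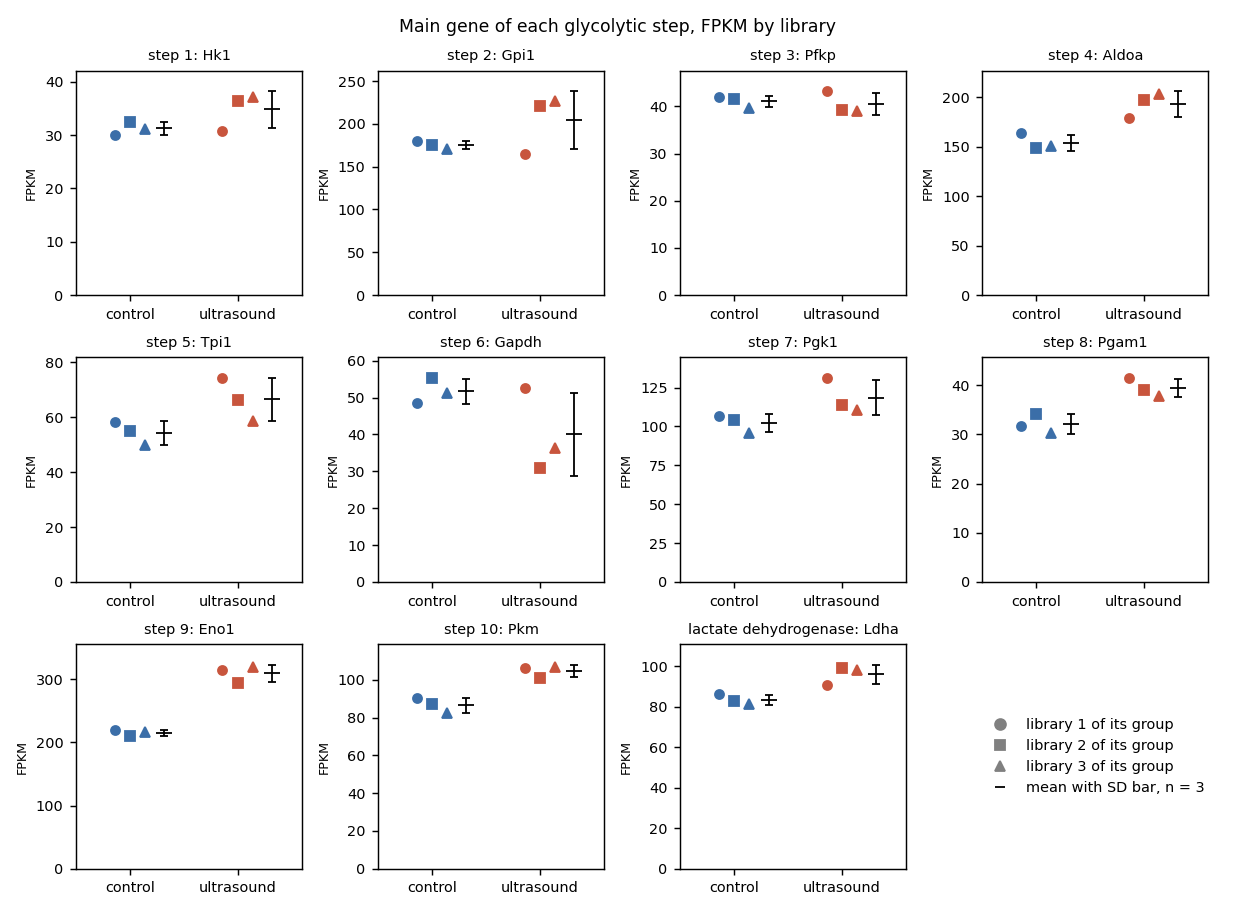
FPKM in each library of the most abundant gene of each of the 10 steps from glucose to pyruvate and of Ldha, with controls in blue, ultrasound libraries in red and the mean with an SD bar for n = 3. Eno1 shows the widest gap between groups against its spread, Gapdh is lower in ultrasound 2 and 3 only, and Hk1 and Gpi1 are higher in those 2 only.

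Both lactate dehydrogenase genes tested lay above every control, and neither was called. For all genes tested, 25.9% lay above every control and 6.55% rose. Ldha, whose subunit predominates in lactate-producing tissue, had 86.3, 82.8 and 81.6 FPKM in the controls and 90.8, 99.2 and 98.4 in the ultrasound libraries. The log2 change was 0.20 ± 0.08 (SE; limma adjusted p = 0.155), and 0.24 without ultrasound 1 (adjusted p = 0.0174). Ldhb, whose subunit predominates in heart, had a log2 change of 0.43 ± 0.12 (SE; limma adjusted p = 0.0782), and its share of the FPKM of both genes was 8.16% to 8.99% in the controls and 9.26% to 11.4% in the ultrasound libraries.

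The pyruvate dehydrogenase complex had 5 tested genes, with 0 called by limma, 1 above every control and a median log2 change of -0.10. Limma called 8.11% of all genes tested in either direction, and 25.9% lay above every control. At an unadjusted p under 0.05, 1 of the 5 was higher (Pdhx) and 0 lower, where 22.6% and 8.57% of all genes tested were. The authors' deposited table gave a q under 0.05 for 0 of the 5. Dld, the dihydrolipoamide dehydrogenase shared with other mitochondrial complexes, had 33.1, 33.2 and 32.1 FPKM in the controls and 36.1, 21.7 and 20.4 in the ultrasound libraries. Ultrasound 1 was the highest library and ultrasound 2 and 3 the lowest. Between groups the log2 change was -0.37 ± 0.21 (SE; limma adjusted p = 0.256), -0.62 without ultrasound 1 (adjusted p = 6.33e-04) and 0.14 in ultrasound 1 alone (adjusted p = 0.393).

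Pdha1, the E1 alpha subunit whose phosphorylation switches the complex off, had 59.0, 60.2 and 57.7 FPKM in the controls and 60.7, 48.6 and 47.2 in the ultrasound libraries. It had the same order of libraries as Dld, with a log2 change of -0.18 ± 0.11 (SE; limma adjusted p = 0.290), -0.30 without ultrasound 1 (adjusted p = 0.00686) and 0.04 in ultrasound 1 alone (adjusted p = 0.803). Pdhb, the E1 beta subunit, had 54.4, 57.1 and 59.0 in the controls and 54.9, 53.0 and 50.4 in the ultrasound libraries (log2 change -0.10 ± 0.08, SE; limma adjusted p = 0.388), with ultrasound 1 inside the control range.

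Dlat, the E2 subunit, had 8.84, 9.16 and 8.40 FPKM in the controls and 10.4, 8.92 and 8.44 in the ultrasound libraries, which overlapped (log2 change 0.06 ± 0.10, SE; limma adjusted p = 0.688). The sign for Dlat turned with scaling, to -0.03 with median-of-ratios factors. Pdhx, which anchors the E3 component, had 5.02, 5.23 and 5.17 in the controls and 6.58, 6.16 and 5.87 in the ultrasound libraries, without overlap (log2 change 0.23 ± 0.09, SE; limma adjusted p = 0.148). Summed over the 5 genes, the complex stood at 160.4 to 165 FPKM in the controls, 169 in ultrasound 1, 138 in ultrasound 2 and 132 in ultrasound 3. The lower sums were those of the 2 libraries whose mitochondrial reads took under 1% of the total, and the relation between them was not tested.

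Of the 4 gluconeogenic genes listed, 2 passed the filter. Pck2 (chr14:55540263-55550020) encodes the mitochondrial phosphoenolpyruvate carboxykinase, which turns oxaloacetate into phosphoenolpyruvate. Its FPKM was 3.66, 4.13 and 3.49 in the controls and 5.56, 7.54 and 8.31 in the ultrasound libraries. Every ultrasound library lay above every control, ultrasound 1 least. Pck2 rose by a log2 change of 0.76 ± 0.15 (SE; limma adjusted p = 0.0363), with 0.47 in ultrasound 1 alone and 0.91 without ultrasound 1 (adjusted p = 6.30e-04). With median-of-ratios factors the log2 change was 0.68 and was not called (limma adjusted p = 0.0514).

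G6pc3, the ubiquitous glucose 6-phosphatase, had 16.0, 16.0 and 17.3 FPKM in the controls and 19.0, 20.3 and 17.9 in the ultrasound libraries. The groups did not overlap, with a narrow gap between control 3 and ultrasound 3, and the log2 change was 0.20 ± 0.09 (SE; limma adjusted p = 0.166). The cytosolic carboxykinase Pck1 had 0 to 4 reads per library, where a count of 0 allows up to 3 reads for counting error alone.

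The enzymes of alcohol, aldehyde and acetate metabolism had 11 tested genes, of which 3 rose (Aldh3b1, Aldh2 and Aldh1b1), 6 lay above every control and 5 overlapped them. Their median log2 change was 0.21. Across all genes tested, 6.55% rose and 25.9% lay above every control. Aldh3b1 (chr19:3913491-3930898) encodes an aldehyde dehydrogenase that oxidises lipid-derived aldehydes. Its FPKM was 4.87, 2.76 and 2.63 in the controls and 13.0, 12.3 and 19.5 in the ultrasound libraries. The groups lay far apart, control 1 was the highest control and ultrasound 3 the highest library. The log2 change of 1.86 ± 0.24 (SE; limma adjusted p = 0.0297) was the largest of the 43, with 1.70 in ultrasound 1 alone (adjusted p = 0.0800) and 1.94 without ultrasound 1 (adjusted p = 0.00399).

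Aldh2 (chr5:121566027-121593824) encodes the mitochondrial enzyme that clears acetaldehyde. Its FPKM was 14.5, 8.70 and 9.26 in the controls and 20.8, 30.0 and 37.8 in the ultrasound libraries. Every ultrasound library was higher than control 1, the highest control. The log2 change was 1.36 ± 0.26 (SE; limma adjusted p = 0.0333), with 0.92 in ultrasound 1 alone (adjusted p = 0.149) and 1.59 without ultrasound 1 (adjusted p = 0.00396).

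Aldh1b1 (chr4:45799022-45804608) encodes a mitochondrial enzyme close to Aldh2. Its FPKM was 3.67, 3.98 and 3.29 in the controls and 4.96, 5.77 and 5.88 in the ultrasound libraries, without overlap. The log2 change of 0.49 ± 0.11 (SE) had a limma adjusted p of 0.0464, near the threshold. The adjusted p was 0.0707 with median-of-ratios factors and 0.0546 with voom on recovered reads, and ranged from 0.00321 to 0.182 over the alternatives.

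Acss2, the cytosolic and nuclear acetyl-CoA synthetase, had 19.8, 23.1 and 25.3 FPKM in the controls and 16.7, 26.0 and 22.5 in the ultrasound libraries. The groups overlapped widely, with ultrasound 1 lowest and ultrasound 2 highest (log2 change -0.08 ± 0.17, SE; limma adjusted p = 0.766). Of the others, Akr1a1, Aldh3a2 and Aldh9a1 lay above every control, with log2 changes of 0.47, 0.34 and 0.16, and Adh1, Adh5, Aldh7a1 and Acss1 overlapped the controls, with 0.21, 0.11, 0.18 and -0.05.

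**Figure D4:**
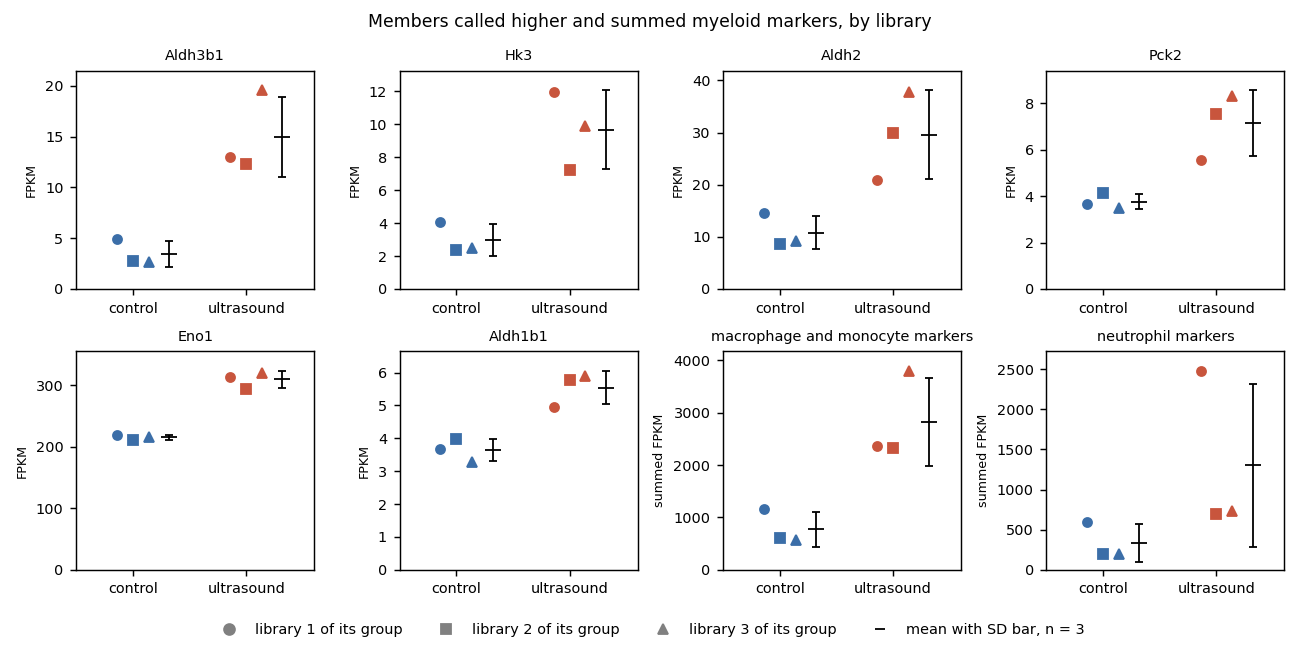
FPKM in each library of the 6 genes that rose, and summed FPKM of the macrophage and monocyte markers and of the neutrophil markers, with the mean and an SD bar for n = 3. Control 1 is the highest control for Aldh3b1, Hk3, Aldh2 and both marker sums, and the Eno1 controls lie within 211 to 219 FPKM.

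Markers of myeloid cells were also higher in the ultrasound libraries. Of 13 macrophage and monocyte markers tested, 6 were called higher by limma and 10 lay above every control; their summed FPKM was 1152, 602 and 560.1 in the controls and 2362, 2326 and 3793 in the ultrasound libraries. Of 11 neutrophil markers, 4 were called higher and 10 lay above every control, with summed FPKM of 600.3, 199 and 202 in the controls and 2473, 696 and 731 in the ultrasound libraries. None of these markers was at 0 in every control. Over all genes tested, 6.55% were called higher and 25.9% lay above every control.

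The order of libraries was shared in part. Control 1 was the highest control in both marker sums and in Aldh3b1, Hk3 and Aldh2, but not in Pck2 or Aldh1b1, and in Eno1 it stood at 219 FPKM against 211 and 216. The share of all genes tested with control 1 as the highest control was not counted. Ultrasound 1 was highest in the neutrophil sum and in Hk3, and ultrasound 3 in the macrophage and monocyte sum and in Aldh3b1, Aldh2, Pck2, Eno1 and Aldh1b1. S100a8 and S100a9 (725 and 886 FPKM) made up most of the neutrophil sum in ultrasound 1. Lyz2 (2721 FPKM) made up most of the macrophage and monocyte sum in ultrasound 3. Csf3r, Mmp9 and Cxcr2 were instead highest in ultrasound 3, and C1qa, C1qb, C1qc, Cd14 and Ctss in ultrasound 1. The remaining markers of both lists were highest in the same library as their sum. The part of myeloid RNA in any of these results was not tested, and in sorted bulk cells a change in the share of a cell type and a change in RNA per cell cannot be told apart.

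Markers of other cells were checked in the same way. The shares over all genes tested were 6.55% called higher by limma, and 22.6% higher and 8.57% lower at an unadjusted p under 0.05. B cell markers (9 genes, 8 tested, 0 called by limma, 0 with an unadjusted p under 0.05 and 0 above every control) summed to 236 to 363 FPKM in the controls and 175, 926 and 807 in the ultrasound libraries. Dendritic cell markers (4 tested, 0 called, 0 with an unadjusted p under 0.05) summed to 23.3 to 49.4 and 29.1 to 83.2, NK cell markers (5 tested, 1 called higher, 1 lower at an unadjusted p under 0.05) to 36.3 to 44.4 and 28.2 to 61.1, erythroid markers (5 tested, 0 called, 1 lower at an unadjusted p under 0.05) to 83.4 to 133 and 55.5 to 112, and platelet markers (2 tested, 0 called, 1 higher at an unadjusted p under 0.05) to 1.07 to 2.82 and 1.86 to 4.66. The called NK cell marker was Klrb1c, with a log2 change of 1.70, and the lower one was Eomes, which lay below every control at -0.52 (limma adjusted p = 0.110). Eomes made up most of the NK cell sum in every control (mean 36.1 FPKM), so that sum says little about the other NK cell markers. Klrb1c and Ncr1, which was too low to test, lay above every control. Klra8, Klra4 and Klre1 were higher in ultrasound 2 and 3 than in any control, with ultrasound 1 among the controls. Without ultrasound 1, limma called all 8 tested B cell markers, 4 of 5 NK cell markers and 3 of 4 dendritic cell markers higher, where 33.8% of all genes tested were. The part of RNA from such cells in the 23 calls made without that library was not tested.

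Seen library by library, the genes did not move as one block. Hk1, Gpi1, Adh1, Adh5, Galm and Eno3 were higher in ultrasound 2 and 3 than in any control but not in ultrasound 1. Gapdh, Dld, Pdha1, Pdhb and Pfkp were lower in ultrasound 2 and 3 than in any control but not in ultrasound 1. Ultrasound 1 was the highest of the 6 libraries for Hk3, Adpgk, Pfkp, Tpi1, Pgk1, Pgam1, Eno1b, Dlat, Dld, Pdha1, Pdhx and Aldh9a1.

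**Figure D5:**
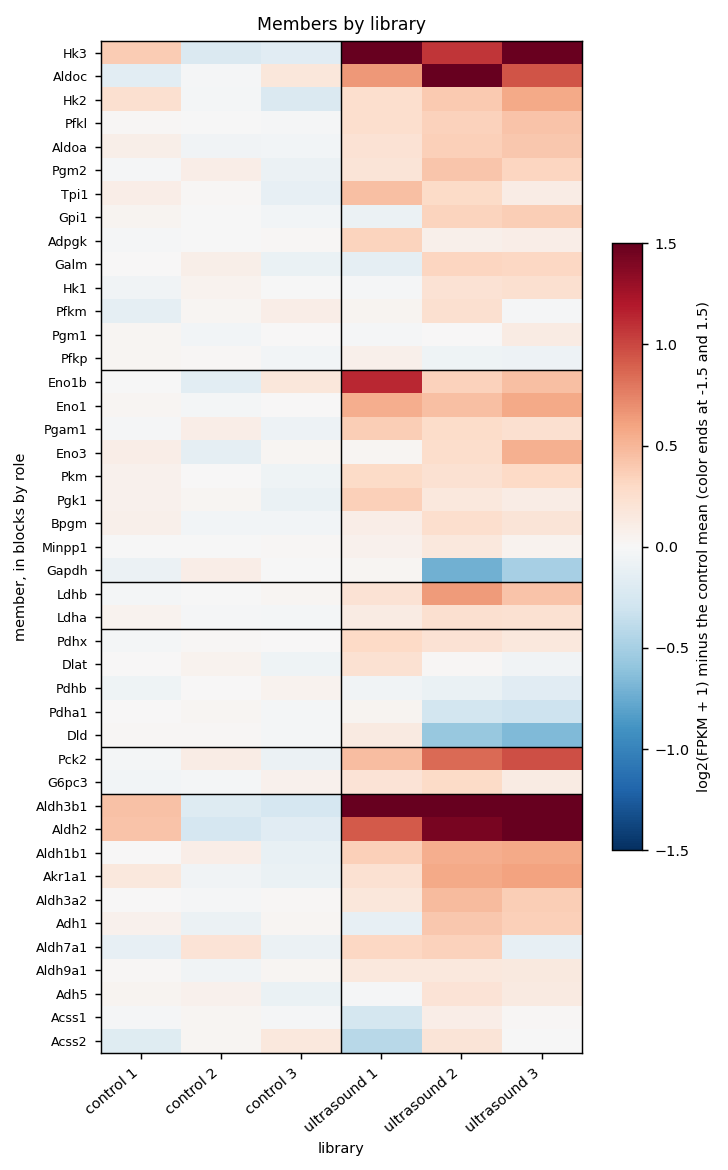
The 43 tested genes by library, as log2(FPKM + 1) minus the mean of the controls, in blocks by role, with color ends marked on its scale. Ultrasound 2 and 3 resemble each other in Gapdh, Dld, Pdha1 and Gpi1, where ultrasound 1 is near the controls, and Eno1 is raised in all 3.

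Many of the 43 genes belong to other pathways in the authors' annotation. The authors' annotation placed 19 of them in pyruvate metabolism, with 3 of the 6 that rose (Aldh1b1, Aldh2 and Pck2), and 17 in HIF-1 signaling, with 2 (Eno1 and Hk3). It placed 8 in the pentose phosphate pathway, with 0 of the 6, and 6 in the citrate cycle, with 1 (Pck2). Histidine metabolism and beta-alanine metabolism each held 6, with 3 that rose (Aldh1b1, Aldh2 and Aldh3b1). The share over all genes tested was 6.55% that rose. These pathways share genes, other pathways are not listed, and the counts describe the annotation only.

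The enzymes and regulators around the pathway were described through 6 lists with 54 genes in the table, of which 51 were tested. By limma 8 rose and 0 fell, where 6.55% of all genes tested rose and 1.56% fell. At an unadjusted p under 0.05, 22 of the 51 were higher and 4 lower, where 22.6% and 8.57% of all genes tested were. Their median log2 change was 0.11, against 0.09 for all genes tested. Without ultrasound 1, 20 of the 51 were called higher and 7 lower, where 33.8% and 19.9% of all genes tested were. With ultrasound 1 alone 0 were called, and with median-of-ratios factors 3 were called. Among 8 transport genes 2 rose: Slc16a3, the lactate exporter of glycolytic cells, by 1.58 ± 0.25 (log2 change, SE; limma adjusted p = 0.0304), and Slc2a6, a sugar transporter of intracellular membranes, by 1.53 ± 0.24 (limma adjusted p = 0.0304). Slc16a3 stood at 2.58, 1.01 and 1.64 FPKM in the controls and 7.76, 5.13 and 8.38 in the ultrasound libraries, without overlap. Slc16a1, the other main lactate carrier, was 13.1, 16.2 and 17.6 in the controls and 13.4, 9.06 and 8.17 in the ultrasound libraries (log2 change -0.59, limma adjusted p = 0.102). The glucose transporter genes Slc2a1 and Slc2a3 overlapped the controls, with log2 changes of -0.16 and 0.03.

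Among 5 genes that set the level of fructose 2,6-bisphosphate, the activator of phosphofructokinase, Pfkfb4 rose, from 2.49, 2.07 and 2.06 FPKM in the controls to 4.29, 6.81 and 10.3 in the ultrasound libraries (log2 change 1.28 ± 0.26, SE; limma adjusted p = 0.0386). Pfkfb1 had the lowest change of that list, -0.04. The pentose phosphate pathway, which branches off at glucose 6-phosphate, had 3 of 7 genes that rose, where 6.55% of all genes tested rose. G6pdx, its first enzyme, had 29.5, 22.6 and 19.9 FPKM in the controls and 49.0, 47.8 and 58.8 in the ultrasound libraries (log2 change 1.09 ± 0.16, SE; limma adjusted p = 0.0304). Pgd, the next dehydrogenase, and Tkt, a transketolase that leads back to glycolysis, rose by log2 changes of 0.77 and 0.59, and Rpe was lowest at -0.39 (limma adjusted p = 0.150).

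For the lists below, the shares over all genes tested were 6.55% called higher and 1.56% called lower by limma. At an unadjusted p under 0.05 they were 22.6% higher and 8.57% lower. Of 8 genes for pyruvate entry into mitochondria, limma called 0, and 2 were higher and 1 lower at an unadjusted p under 0.05. Pdk2, a kinase that switches pyruvate dehydrogenase off, had the highest change, 0.45, and Pdk1, another such kinase, the lowest, -0.29. Of 14 transcriptional and nutrient regulators 1 rose, Akt1, a kinase of insulin and growth signals, by 0.62, and Hif1a, which drives many glycolytic genes under low oxygen, was lowest. Hif1a had 40.1, 40.5 and 33.6 FPKM in the controls and 38.4, 21.0 and 20.6 in the ultrasound libraries (log2 change -0.55, limma adjusted p = 0.169), so ultrasound 1 lay among the controls and ultrasound 2 and 3 below them. Of 9 hypoxia targets outside glycolysis 1 rose, Mxi1, by 0.57, while Bnip3 had the highest change, 0.63 (limma adjusted p = 0.0507), and Vegfa the lowest, -0.61 (limma adjusted p = 0.104).

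The order of libraries in the 8 related genes that rose was set beside that of the myeloid marker sums as well. In each of the 8 genes every ultrasound library lay above every control, as in 25.9% of all genes tested. The 8 were picked by their limma call, which favors such separation. For Slc16a3, Slc2a6, Pfkfb4, G6pdx, Pgd, Tkt and Akt1 control 1 was the highest control, as in the macrophage and monocyte sum (1152, 602 and 560.1 FPKM in the controls) and the neutrophil sum (600.3, 199 and 202), and for Mxi1 control 3 was. How many of all genes tested had control 1 as their highest control was not counted. Control 1 also stood apart from control 2 and 3 on the leading principal component (-15.8 against -28.6 and -28.0). The part of myeloid RNA in these genes was not tested either.

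The 13 genes too low to test include Aldh3a1, Aldh3b3, Eno2, Eno4, Fbp2, Gapdhs, Hkdc1, Ldhal6b, Pck1, Pgam2 and Pklr. Pklr encodes the pyruvate kinase of liver and red cells, and Gapdhs the sperm form of glyceraldehyde 3-phosphate dehydrogenase. Pklr had at most 8 reads and Gapdhs at most 9 reads in any library.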

How the data were processed

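RNA-seq of sorted splenic CD8 T cells was compared between 3 control and 3 ultrasound libraries, grouped and numbered by their titles. The authors deposited 1 full table, with FPKM per library and gene, a set of signal columns, which per the file headers are DESeq2 normalized counts averaged for each group and for all libraries, and the authors' own comparison by DESeq2 as a fold (ratio of group means), its log2, a p-value and a q-value. Tools that the authors used are, by the submitters' processing notes, HISAT2, HTSeq, DESeq2 and R 3.2.0, with build mm10. How each was used, and how reads shared by gene copies were counted, is not given in the sources used here. The library kit version differs between the design text and the extraction protocol.

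The table holds no raw counts per library, so the test was limma 3.58.1 under R 4.3.3, with the trend and robust options, on log2(FPKM + 1), a scale that understates the change of low genes. It ran over the 10655 genes that reached an FPKM of 1 in at least 3 libraries, with two-sided p-values adjusted by Benjamini-Hochberg over all of them and a threshold of 0.05. Whole reads were recovered from the FPKM and the group means: 100% of 77578 values lay within 0.05 reads of a whole number. Reads carry no molecular identifiers, so read limits cover counting error only. Median-of-ratios and upper-quartile factors were computed on the FPKM, and voom used the recovered reads with library size scaling. Recovery and fit were tested on simulated data. Coordinates and sequences are RefSeq's for GRCm38.p6, matched by NCBI Gene identifier or symbol. Other steps used Python 3.11.15, pandas 2.3.3, numpy 2.4.6, scipy 1.17.1 and matplotlib 3.10.9.

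Genes given in every library are those with adjusted p under 0.05, the most abundant gene of each of the 10 steps, of lactate dehydrogenase and of each pyruvate dehydrogenase subunit, the gluconeogenic genes tested, and the 5 highest and 5 lowest log2 changes. Other genes with such values were chosen after their values were seen. The pathway genes and the lists were chosen with earlier results of these data known. Lists of brain, intestine and skeletal muscle markers were added after values had been seen, so their limma results are a description only. Limma called 0 of the 2 brain markers tested and 0 of the 2 muscle markers tested. The 9 intestine markers in the table summed to 18.1 to 24.6 FPKM in the controls, 12.1 in ultrasound 1, 0.211 in ultrasound 2 and 0.0922 in ultrasound 3. Of the 3 tested, 1 was called lower (Apoa4, log2 change -1.87, limma adjusted p = 0.0447), where 1.56% of all genes tested were. All 3 were lower at an unadjusted p under 0.05, where 8.57% of all genes tested were. The 6 muscle markers in the table summed to 11.7 to 12.8 FPKM in the controls and 11.1 to 12.8 in the ultrasound libraries. Some values of genes too low to test are not reported here. Alternatives covered filters, the pseudocount, scaling, the robust option, a replicate block, a term for ultrasound 2 and 3, voom, the authors' values, the threshold, abundant genes and each library left out.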

Additional observations from a re-analysis of the deposited data

Results flagged for a closer look

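Among the 13 pathway genes too low to test, 3 showed reads in 1 ultrasound library above the level in the controls, by counting intervals (exact Poisson, 95%) that did not overlap. Eno2, the enolase known from neurons, had 308 reads in ultrasound 2, against 55 to 69 in the controls, with 61 in ultrasound 1 and 78 in ultrasound 3. Fbp2, the muscle fructose 1,6-bisphosphatase, had 24 reads in ultrasound 1, against 6, 7 and 3 in the controls and 0 in both other ultrasound libraries. Pgam2, the muscle phosphoglycerate mutase, had 32 reads in ultrasound 1, against 0, 2 and 3 in the controls and 5 and 2 in the other ultrasound libraries. Each signal was seen in 1 library only, so none is a difference between the groups.

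Brain markers also had their highest sum in ultrasound 2, at 54.0 FPKM against 27.0 to 31.0 in the controls. Mbp made up most of the control sums (25.8, 29.5 and 28.3 FPKM), so they say little about the other brain markers. Each of those others was highest in ultrasound 2. Skeletal muscle markers summed to 11.4 FPKM in ultrasound 1 and 11.7 to 12.8 in the controls. Mylpf (7.17 FPKM) and Tnnt3 (3.50) made up most of that sum in ultrasound 1, so it says little about the other muscle markers. The part of brain or muscle RNA in these reads was not tested.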

How the results depend on the processing

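The lowest count of a tested pathway gene in any library was 39 reads. The count of all genes called (864) became 1745 with the authors' deposited q, 442 with median-of-ratios factors, 0 without a filter on low values (4216 with an unadjusted p under 0.05), 150 for ultrasound 1 alone and 1962 at an adjusted p under 0.1. The 6 pathway genes called higher became 4 with median-of-ratios factors, 5 with upper-quartile factors, 5 with voom, 0 without the filter and 15 at 0.1. Pck2 and Aldh1b1 lost the call with median-of-ratios factors (limma adjusted p = 0.0514 and 0.0707). The 8 related genes called became 3 with median-of-ratios factors, 0 without the filter and 14 at 0.1. With 1 library left out at a time, all genes called ranged from 0 to 5628, pathway genes called higher from 0 to 23, pathway genes called lower from 0 to 3 and related genes called from 0 to 27, with the upper ends reached without ultrasound 1 and 0 reached without control 2, control 3, ultrasound 2 or ultrasound 3. Without the filter, 17744 genes were tested in place of 10655, and for the other changes the cause was not tested. The count past a fold of 1.5 stayed between 4 and 7 under every alternative run.

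The labels name no pairing of libraries. Deviations from the group means correlated at -0.04, 0.05 and 0.06 between same-numbered libraries, and at -0.27 to 0.13 between differently numbered ones. With 3 libraries per group these values cannot decide whether the numbers mark pairs. With a replicate block, limma called 0 genes of all, 0 pathway genes and 0 related genes, while 3249 genes and 17 pathway genes had an unadjusted p under 0.05.

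The 6 genes that rose kept their direction under every alternative run and lost the call in 47 of 102 results: all 6 without the filter, with the replicate block, and without control 2, control 3, ultrasound 2 or ultrasound 3. Of the 24 genes given in full, 8 changed sign somewhere. Dlat had -0.0502 in the authors' deposited table, -0.0252 with median-of-ratios and -0.0227 with upper-quartile factors. Ultrasound 1 alone gave 0.1350 for Dld, 0.0285 for Gapdh, -0.0844 for Gpi1, -0.0179 for Hk1, 0.0410 for Pdha1 and 0.0720 for Pfkp. With 1 library left out at a time, Acss2 ranged from -0.2142 to 0.0907, Dlat from -0.0170 to 0.1211 and Pfkp from -0.0693 to 0.0033. The setting without abundant genes left out 17 mitochondrial and hemoglobin genes and matched no immunoglobulin gene.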
